A study of Arabidopsis thaliana with 6 samples.

Results

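The genes described here are 10 Arabidopsis thaliana transcription factor genes that pattern the carpel and the fruit: SPATULA (SPT), NO TRANSMITTING TRACT (NTT), HECATE1, HECATE2 and HECATE3 (HEC1, HEC2, HEC3), FRUITFULL (FUL), ALCATRAZ (ALC), INDEHISCENT (IND), REPLUMLESS (RPL) and CRABS CLAW (CRC). They were chosen by name, as a measure of carpel tissue in ovule samples, and all 10 were found by gene identifier among the 33977 genes of the deposited count table. RNA was sequenced from mature ovules dissected out of flowers of 6-week-old plants, with 3 libraries labelled PRP8Aa prp8bb and 3 labelled wild type. PRP8A and PRP8B encode PRP8, the largest core protein of the spliceosome, and the study concerns their part in attracting pollen tubes. The first group carries T-DNA insertions. Its labels describe a mixture of ovules with and without a working PRP8A copy, all of them with the prp8b allele. As PRP8Aa denotes a heterozygous plant, this difference lies in the haploid embryo sacs, so each such library averages embryo sacs of 2 genotypes. The maternal tissue of these ovules would be PRP8Aa throughout. The labels name no further allele or treatment.

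The gynoecium arises from carpels whose margins fuse and give rise to the septum, the transmitting tract, the style, the stigma and the placenta that bears the ovules. SPT, a bHLH factor, acts at these margins. The HECATE proteins, also bHLH factors, can bind SPT and act with it in the transmitting tract and stigma, and the zinc finger protein NTT is needed for the transmitting tract through which pollen tubes grow. In the fruit wall, IND and ALC specify the valve margin where the pod opens, FUL keeps valve cells from taking that fate, and RPL does so for the replum between the valves. CRC, a YABBY factor, acts in carpel fusion and polarity and is required for nectaries.

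SPT was higher in the libraries labelled PRP8Aa prp8bb, by 0.73 on the log2 scale, and it was the only regulator past the threshold. The levels of NTT also did not overlap between the groups, but NTT missed the threshold. ALC and FUL, the regulators with the highest levels per kilobase, overlapped between the groups, and CRC, HEC1 and HEC2 had at most 18 counts in any library, too few to be tested. A gene passed when its adjusted p from edgeR's quasi-likelihood test, with Benjamini-Hochberg adjustment over all genes tested, was under 0.05. Of the 10 regulators 7 had enough counts to be tested, of which 1 rose and 0 fell. Over all 19297 genes tested, 3.05% rose and 2.79% fell (5.85% in either direction), so a single call among 7 genes is not a result about the regulators as a group. At an unadjusted p under 0.05, 3 of the 7 were higher (SPT, NTT and RPL) and 0 were lower. DESeq2 and limma-voom each called 1 higher and 0 lower. The shares over all genes hold for the adjusted p of the main fit with all libraries. None is given, here or below, for other fits or for gene counts at an unadjusted p. The median log2 fold change of the 7 was 0.45, against -0.01 over all genes tested.

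Gene counts totalled 11261844 to 12644525 per library labelled PRP8Aa prp8bb and 8497702 to 12460805 per wild type library. Wild type replicate 1 stood apart: its nonzero gene counts were even in 77.6% of cases, compared with 47.7% to 48.6% elsewhere, so it is possible that each of its fragments was counted 2 times. The share of mitochondrial counts was 2.98%, 14.5% and 4.88% in replicates 1, 2 and 3 labelled PRP8Aa prp8bb and 2.43% to 6.53% in wild type. PRP8A had 870.6 to 956.4 counts scaled to library size (CPM) in the libraries labelled PRP8Aa prp8bb and 1131 to 1200 in wild type (edgeR adjusted p = 0.105), and PRP8B had 41.4 to 43.8 against 34.9 to 38.4 CPM (edgeR adjusted p = 0.251). The share of PRP8B exon counts at its 3′ end was 32.0%, 6.71% and 18.1% in replicates 1, 2 and 3 labelled PRP8Aa prp8bb, against 27.8%, 35.7% and 37.8% in wild type, with the boundary placed after such values had been seen. Replicate 1 labelled PRP8Aa prp8bb thus lay within the wild type range and went against its label by this measure. The 3′ share of PRP8A exon counts was 22.6%, 19.6% and 22.3% in replicates 1, 2 and 3 labelled PRP8Aa prp8bb. In wild type it was 26.2%, 30.8% and 32.0%, so by that measure replicate 1 lay with its own group. The regulators whose call changes without replicate 1 labelled PRP8Aa prp8bb are given both ways. In dissected tissue, fewer cells of a type and less RNA per cell cannot be told apart.

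SPT and ALC are close relatives, and both have a pair of exons of 66 bases that encode part of the bHLH domain. These exons are shown because SPT passed the threshold and ALC did not, and because reads from matching stretches could be assigned to the wrong copy. Such misassignment was not tested. The sequences are those of the TAIR10.1 genome from RefSeq at the coordinates of the deposited exon table, read 5′ to 3′ on the strand of each gene, with capitals at the bases that differ between SPT and ALC.
SPT, first exon, chr4:17415092-17415157, plus strand: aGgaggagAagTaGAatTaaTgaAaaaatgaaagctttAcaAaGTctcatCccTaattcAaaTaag
ALC, first exon, chr5:26785762-26785827, minus strand: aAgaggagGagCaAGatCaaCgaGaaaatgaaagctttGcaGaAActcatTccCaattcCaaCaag
SPT, second exon, chr4:17415255-17415320, plus strand: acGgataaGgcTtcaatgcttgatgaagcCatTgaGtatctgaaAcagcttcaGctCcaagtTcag
ALC, second exon, chr5:26785618-26785683, minus strand: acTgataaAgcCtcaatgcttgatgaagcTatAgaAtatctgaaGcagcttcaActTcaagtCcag
The first pair had 50 identical bases (75.8%) and the second 56 (84.8%).

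SPT (AT4G36930, TAIR10 chromosome 4, 17414083 to 17416386, plus strand) had 344, 261 and 269 counts in replicates 1, 2 and 3 labelled PRP8Aa prp8bb, against 151, 169 and 197 counts in wild type replicates 1, 2 and 3. As CPM these were 26.0, 26.5 and 23.7 CPM in the libraries labelled PRP8Aa prp8bb, against 17.6, 13.2 and 15.2 CPM in wild type. The lowest library labelled PRP8Aa prp8bb lay above the highest wild type library. The means were 25.4 ± 1.47 and 15.4 ± 2.23 CPM (SD, n = 3 each), and the log2 fold change was 0.73 (SE 0.14, edgeR adjusted p = 0.0123). Without wild type replicate 3 SPT kept a log2 fold change of 0.73 but missed the threshold (edgeR adjusted p = 0.0743). Without replicate 1 labelled PRP8Aa prp8bb it was 0.71 (edgeR adjusted p = 0.0334). In the authors' deposited table of fold changes, which holds 1543 genes past its threshold, SPT was the only one of the 10 regulators, with a log2 fold change of 0.74 and an adjusted p of 0.000909.

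NTT (AT3G57670, chromosome 3, 21370757 to 21373591, plus strand) had 12.6, 19.7 and 15.7 CPM in the libraries labelled PRP8Aa prp8bb, against 11, 9.98 and 9.98 CPM in wild type. The groups did not overlap, although replicate 1 labelled PRP8Aa prp8bb lay close to wild type replicate 1. The log2 fold change was 0.63 (SE 0.18, edgeR adjusted p = 0.0721). Of the 7 tested regulators, SPT and NTT were the 2 with every library labelled PRP8Aa prp8bb above every wild type library, a pattern shown by 12.6% of all genes tested. Without a filter on low counts NTT passed the threshold (edgeR adjusted p = 0.0398).

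The HECATE genes, whose proteins are partners of SPT, were expressed at very different levels. HEC3 (AT5G09750, chromosome 5, 3026109 to 3027114, minus strand) had 3.78, 8.72 and 6.08 CPM in the libraries labelled PRP8Aa prp8bb, against 4.67, 4.37 and 4.26 CPM in wild type. One library labelled PRP8Aa prp8bb lay below all wild type libraries and the other two above them, and the log2 fold change of 0.47 (SE 0.29) did not pass (edgeR adjusted p = 0.430). It was 0.74 (edgeR adjusted p = 0.115) without replicate 1 labelled PRP8Aa prp8bb and 0.15 (edgeR adjusted p = 0.850) without replicate 2. HEC1 (AT5G67060, chromosome 5, 26765992 to 26767257, plus strand) had 2, 5 and 2 counts in the libraries labelled PRP8Aa prp8bb, against 0, 0 and 1 counts in wild type. The ratio of these summed counts after library scaling was 8.97, with an exact 95% counting interval from 1.24 to 393.1, and HEC1 was too low for the test. HEC2 (AT3G50330, chromosome 3, 18656955 to 18658377, minus strand) had 1 count in the libraries labelled PRP8Aa prp8bb together and 0 in wild type, so no fold is given.

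Neither valve margin gene passed. ALC (AT5G67110, chromosome 5, 26785106 to 26786431, minus strand), which is needed for the separation layer of the fruit, had 54.5, 59.6 and 60.8 CPM in the libraries labelled PRP8Aa prp8bb, against 50.0, 64.6 and 63.7 CPM in wild type. The groups overlapped, with wild type replicate 1 the lowest of all, and the log2 fold change was -0.03 (SE 0.12, edgeR adjusted p = 0.921). ALC lies wholly within AT5G67100 on the opposite strand, which had 1036 to 1173 counts in the libraries labelled PRP8Aa prp8bb and 677 to 1122 in wild type. Reads spliced at both ends of the 4 ALC introns, which begin with GT and end with AG on the ALC strand, numbered 95 to 127 per intron in the deposited intron table. IND (AT4G00120, chromosome 4, 41665 to 43197, minus strand), which lies in the same bHLH subfamily as the HECATE genes, had 3.55, 7.60 and 5.20 CPM in the libraries labelled PRP8Aa prp8bb, against 5.84, 6.00 and 6.50 CPM in wild type. The wild type values lay inside the wider range of the other group, and the log2 fold change was -0.18 (SE 0.27, edgeR adjusted p = 0.768).

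FUL (AT5G60910, listed by RefSeq as AGL8, chromosome 5, 24502434 to 24506269, minus strand), the MADS-box gene of the valves, had 47.6, 46.3 and 43.7 CPM in the libraries labelled PRP8Aa prp8bb, against 44.2, 39.9 and 44.8 CPM in wild type. These ranges overlapped, and the log2 fold change was 0.10 (SE 0.10, edgeR adjusted p = 0.662). RPL (AT5G02030, chromosome 5, 395567 to 399125, plus strand), the homeodomain gene of the replum, had 29.6, 48.9 and 39.5 CPM in the libraries labelled PRP8Aa prp8bb, against 30.5, 27.3 and 28.6 CPM in wild type. Replicates 2 and 3 labelled PRP8Aa prp8bb lay above all wild type libraries and replicate 1 within them, and the log2 fold change was 0.45 (SE 0.17, edgeR adjusted p = 0.180). Without replicate 1 labelled PRP8Aa prp8bb, RPL (0.62, edgeR adjusted p = 0.0294) and NTT (0.78, edgeR adjusted p = 0.0286) passed together with SPT, giving 3 regulators higher. The share of all genes that rose in that fit is not given. Without replicate 2 the log2 fold change of RPL was 0.27 (edgeR adjusted p = 0.432) and that of NTT 0.46 (edgeR adjusted p = 0.195).

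CRC (AT1G69180, chromosome 1, 26007350 to 26009141, minus strand) had 13, 6 and 18 counts in the libraries labelled PRP8Aa prp8bb, against 2, 1 and 5 counts in wild type. Every library labelled PRP8Aa prp8bb was above every wild type library, and the ratio of the summed counts, 37 against 8, was 4.61 after library scaling (exact 95% counting interval 2.11 to 11.5). CRC did not reach the count filter of the test, and without that filter its log2 fold change was 2.15 (SE 0.70, edgeR adjusted p = 0.0881). It shares 19 bases with AT1G69170 on the opposite strand.

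**Figure D1:**
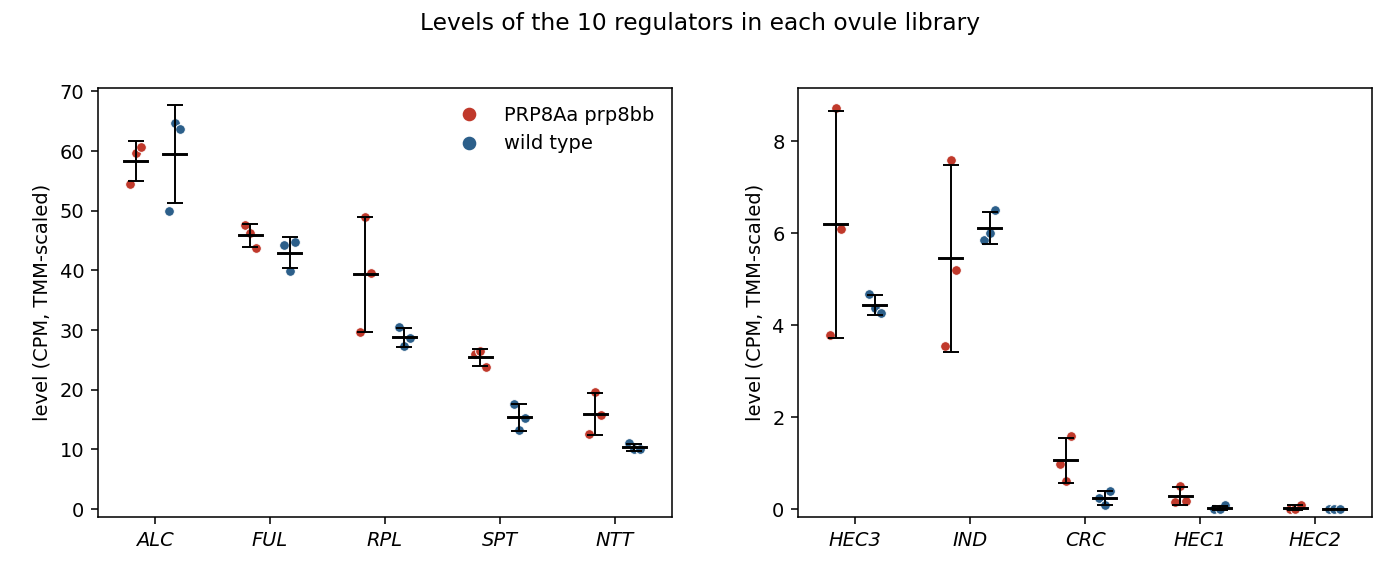
Level of each regulator in CPM (counts over TMM-scaled library sizes, linear axes that differ between the panels) in the 3 libraries labelled PRP8Aa prp8bb and the 3 wild type libraries. Points are libraries, bars the mean and SD. SPT at 23.7 to 26.5 CPM lies above 13.2 to 17.6 CPM in wild type, whereas ALC and FUL overlap.

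**Figure D2:**
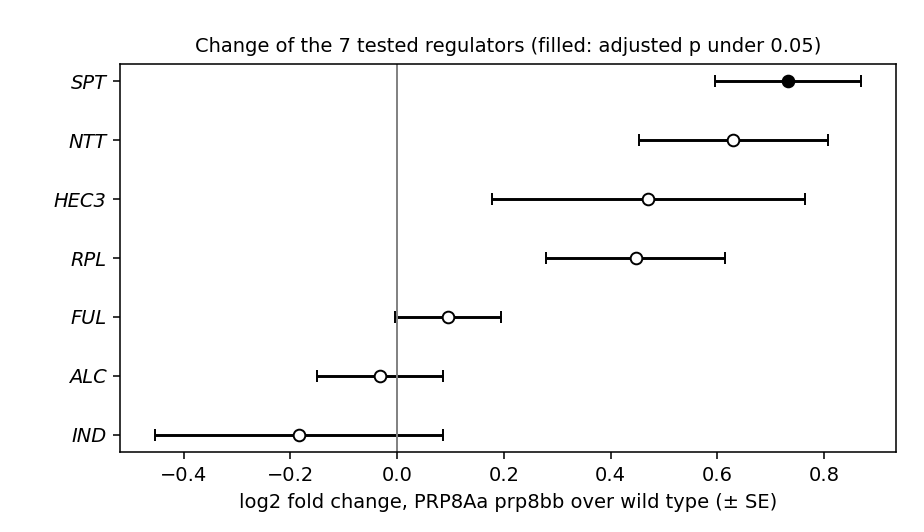
Log2 fold change of the 7 tested regulators, PRP8Aa prp8bb over wild type, with bars of 1 standard error and a filled point for an edgeR adjusted p under 0.05. SPT at 0.73 is the only filled point, and IND at -0.18 is the lowest.

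Some regulators varied together among the libraries labelled PRP8Aa prp8bb. NTT, HEC3, IND and RPL were each lowest in replicate 1 and highest in replicate 2 of that group, while SPT, FUL and ALC were not. The mitochondrial share followed the same order of replicates, and summed pollen genes the opposite one (below). Their part in these levels was not tested.

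Per kilobase of exon, ALC had the highest level in both groups, at 56.6 ± 3.26 CPM per kb in the libraries labelled PRP8Aa prp8bb and 57.7 ± 7.95 in wild type (SD, n = 3 each). FUL followed with 35.2 ± 1.5 in the libraries labelled PRP8Aa prp8bb and 33.0 ± 2.03 in wild type, then RPL with 18.1 ± 4.43 against 13.3 ± 0.742, SPT with 15.4 ± 0.893 against 9.32 ± 1.36, and NTT with 8.88 ± 1.96 against 5.73 ± 0.321 CPM per kb. HEC3 had 6.16 ± 2.46 in the libraries labelled PRP8Aa prp8bb and 4.41 ± 0.215 in wild type, and IND 3.56 ± 1.33 against 3.99 ± 0.223. CRC, HEC1 and HEC2 were under 2 CPM per kb in every library. The order was the same in both groups. The ranges of neighbours overlapped for RPL and SPT, NTT and HEC3, and HEC3 and IND in the libraries labelled PRP8Aa prp8bb, and for HEC3 and IND and for HEC1 and HEC2 in wild type.

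As a measure of carpel tissue, the summed level of the 10 regulators was 132.9, 157.5 and 144.9 CPM per kb in the libraries labelled PRP8Aa prp8bb, against 122.0, 127.9 and 133.1 in wild type. The lowest of the first group lay just under the highest wild type library. ALC made up a large part of this sum, and without it the values were 80.1, 99.6 and 85.9 against 73.4, 65.1 and 71.3 CPM per kb, which did not overlap. Set against the summed level of the ovule and integument genes STK, BEL1, INO, ANT and ATS, the regulators came to 115.6%, 140.3% and 130.0% in the libraries labelled PRP8Aa prp8bb and 104.4%, 92.7% and 102.8% in wild type. The denominator includes STK, an ovule identity gene that was lower in the first group (below). No test was made of these sums.

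SPT was compared with its paralog directly. The log2 ratio of SPT to ALC counts was -1.06, -1.17 and -1.36 in the libraries labelled PRP8Aa prp8bb, against -1.50, -2.29 and -2.06 in wild type. All values of the first group were higher, and the means differed by 0.75 on the log2 scale (two-sided exact permutation test, p = 0.1, the smallest that 3 against 3 libraries can give). From summed exon bin counts the difference was 0.76, with p = 0.2 in the same exact test.

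The exon bins, counted separately by the authors, asked whether the regulators changed in how their exons were used. Of 46 bins in the 10 genes, 27 in 5 genes (SPT, ALC, FUL, RPL and NTT) could be tested, and 0 passed with edgeR's exon usage test. At an unadjusted p under 0.05 the count was also 0, and the smallest unadjusted p was 0.173. Over all 116071 bins tested, 0.00172% passed. Taken per gene (Simes), 0 of the 5 passed, against 0.00673% of all 14868 genes with tested bins. Usage relative to the other bins of the gene differed by -0.16 to 0.26 on the log2 scale. The first 66-base exon of SPT held 7.55%, 8.60% and 7.29% of the SPT bin counts in the libraries labelled PRP8Aa prp8bb, against 5.11%, 8.09% and 9.66% in wild type. No change in the use of SPT exons was thus detected, while the level of the whole gene differed.

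**Figure D3:**
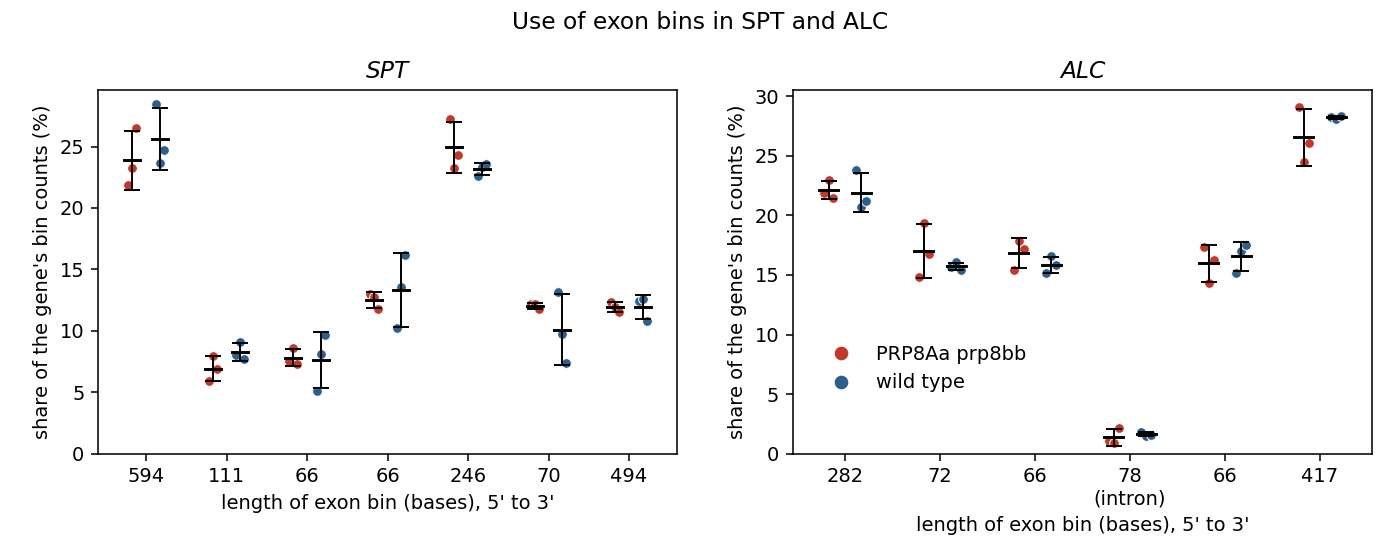
Share of the bin counts of SPT and ALC that falls in each bin of at least 60 bases, in 5′ to 3′ order, for the 3 libraries labelled PRP8Aa prp8bb and the 3 wild type libraries (points, with mean and SD). The ranges of the groups overlap at all 13 bins, and the 78-base intron of ALC holds 0.890% to 2.14% of the counts.

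ALC has an intron that the annotation also lists as exonic, so its retention can be read from the bins. It is shown with the preceding intron, which had the highest retention among the introns of the regulators that were not low in coverage. Both are TAIR10.1 sequence from RefSeq on the minus strand, with the first 2 and last 2 bases in capitals.
ALC intron 2, chr5:26785828-26785917: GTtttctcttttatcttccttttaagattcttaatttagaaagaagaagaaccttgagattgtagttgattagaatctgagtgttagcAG
ALC intron 3, chr5:26785684-26785761: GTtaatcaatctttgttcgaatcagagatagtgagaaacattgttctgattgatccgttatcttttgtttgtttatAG
Intron 3 (78 bases, 69.2% A or T) had bin counts equal to 6.31%, 5.52% and 12.8% of the mean of the 66-base exons beside it in the libraries labelled PRP8Aa prp8bb, against 12.1%, 8.98% and 9.34% in wild type. Replicate 3 was the highest and replicate 2 the lowest of the first group, with wild type between these extremes. The means were 8.22 ± 4.01% and 10.1 ± 1.69% (SD, n = 3 each, two-sided exact permutation test, p = 0.6).

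The deposited table of intron retention names no sample, so its values describe ovules of this study without a genotype. Of the 29 introns of the regulators, 21 were not marked by the authors as low in coverage. Their median retention ratio, a deposited fraction that sets intron signal against spliced reads, was 0.0145, against 0.0184 for 73682 introns of all genes. The depth and the reads spliced at both ends do not by themselves reproduce this ratio. Intron 2 of ALC (90 bases, 70.0% A or T) had a ratio of 0.164, with a mean depth of 23.2 and 106 reads spliced at both ends. It was 1 of 21 introns (4.76%) with a ratio of at least 0.1, a value reached by 10.8% of all introns. Intron 3 of ALC had a ratio of 0.0583. The highest ratio in SPT, 0.0741, was that of its 72-base intron before the first 66-base exon.

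Genes that act with the regulators were counted in lists by role. Of 23 genes of the carpel margin, 22 were tested, 6 rose and 0 fell, against 3.05% and 2.79% of all genes tested. In 15 every library labelled PRP8Aa prp8bb lay above every wild type library, against 12.6% of all genes tested. The median log2 fold change of the 22 was 0.32. The count that rose was 3 without replicate 3 labelled PRP8Aa prp8bb and 3 without wild type replicate 3. With all libraries, at an unadjusted p under 0.05, 12 of the 22 were higher and 0 lower. This count likewise has no share over all genes beside it. The bHLH genes BEE1 and BEE3, which act with HAF in the transmitting tract, were among those that rose. BEE1 had 7.94, 7.91 and 6.26 CPM in the libraries labelled PRP8Aa prp8bb, against 2.45, 3.12 and 2.32 CPM in wild type (log2 fold change 1.48, SE 0.23, edgeR adjusted p = 0.00536). BEE3 had 12.6, 7.30 and 8.55 CPM in the libraries labelled PRP8Aa prp8bb, against 2.57, 2.73 and 3.71 CPM in wild type (log2 fold change 1.65, SE 0.26, edgeR adjusted p = 0.00615). HAF itself had 49.5 to 65.3 CPM in the libraries labelled PRP8Aa prp8bb and 49.3 to 61.3 CPM in wild type and did not pass. Neither BEE gene had a library in the range of the other group.

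Of the STY and SHI genes and the NGATHA genes in this list, which act in the style, STY2 and NGA4 rose, both at low levels. STY2, a regulator of style development, had 2.95, 3.04 and 3.62 CPM in the libraries labelled PRP8Aa prp8bb, against 0.234, 0.702 and 0.542 CPM in wild type (log2 fold change 2.61, SE 0.39, edgeR adjusted p = 0.00449). Its relative STY1 had 13.3, 19.9 and 14.5 CPM in the libraries labelled PRP8Aa prp8bb, against 8.41, 11.4 and 9.52 CPM in wild type, and missed the threshold (log2 fold change 0.69, edgeR adjusted p = 0.0668). NGA4, of the NGATHA family that acts in style and stigma, had 15, 19 and 16 counts in the libraries labelled PRP8Aa prp8bb, against 4, 2 and 0 counts in wild type (log2 fold change 2.97, SE 0.71, edgeR adjusted p = 0.0383). The wild type counts of NGA4 are too few for its fold to be precise, and it missed the threshold (edgeR adjusted p from 0.0541 to 0.145) when any single library other than wild type replicate 1 was left out. The other genes of these families did not pass with edgeR, although STY1 was in the authors' deposited table (DESeq2 adjusted p = 0.0410). NGA1 averaged 25.8 ± 0.95 CPM in the libraries labelled PRP8Aa prp8bb and 22.9 ± 1.4 CPM in wild type (log2 fold change 0.17, edgeR adjusted p = 0.439), and NGA2 averaged 19.4 ± 3.59 CPM in the libraries labelled PRP8Aa prp8bb and 21.2 ± 2.32 CPM in wild type (-0.12, edgeR adjusted p = 0.734, SD, n = 3 each). NGA3 had a log2 fold change of 0.64 (edgeR adjusted p = 0.272) and SHI of 0.20 (edgeR adjusted p = 0.467).

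The auxin response factors ARF6 and ARF3 rose by less. ARF6, a regulator of flower maturation, had 288.2, 372.5 and 357.5 CPM in the libraries labelled PRP8Aa prp8bb, against 241.9, 177.8 and 216.1 CPM in wild type (log2 fold change 0.68, SE 0.14, edgeR adjusted p = 0.0190). ARF3, known as ETTIN for its part in patterning the gynoecium, had 53.0, 68.0 and 60.0 CPM in the libraries labelled PRP8Aa prp8bb, against 36.1, 42.7 and 42.8 CPM in wild type (log2 fold change 0.57, SE 0.12, edgeR adjusted p = 0.0236). Neither gene overlapped between the groups. Both missed the threshold without replicate 3 labelled PRP8Aa prp8bb (edgeR adjusted p = 0.107 each) and without wild type replicate 3 (0.0931 for ARF6 and 0.0867 for ARF3), ARF6 also without wild type replicate 2 (0.0579) and ARF3 without replicate 2 labelled PRP8Aa prp8bb (0.0651). The abundant genes ARF8 (log2 fold change 0.16, edgeR adjusted p = 0.398), REV (0.05, edgeR adjusted p = 0.803) and LUG (0.33, edgeR adjusted p = 0.106) did not pass.

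Among genes of the replum and valve no gene rose. Of 11 genes, all tested, 0 rose and 1 fell, against 3.05% and 2.79% of all genes tested. The median log2 fold change was 0.10. At an unadjusted p under 0.05, for which no share over all genes is given, 4 were higher and 1 lower. The gene that fell was the replum gene WOX13, with 22.8, 19.4 and 20.5 CPM in the libraries labelled PRP8Aa prp8bb, against 33.2, 27.8 and 29.8 CPM in wild type (log2 fold change -0.53, SE 0.12, edgeR adjusted p = 0.0330). Of 11 genes of the valve margin and its opening, 7 were tested, 0 rose and 1 fell. This was SHP2, which acts upstream of IND and ALC, with 53.0, 49.6 and 51.1 CPM in the libraries labelled PRP8Aa prp8bb, against 62.5, 76.7 and 66.3 CPM in wild type (log2 fold change -0.42, SE 0.11, edgeR adjusted p = 0.0471). WOX13 missed the threshold when replicate 2 or 3 labelled PRP8Aa prp8bb or wild type replicate 1 or 3 was left out (edgeR adjusted p from 0.0528 to 0.146). SHP2 did so for any single library other than wild type replicate 1 (0.0681 to 0.196). The paralog of SHP2, SHP1, had a log2 fold change of -0.00 (edgeR adjusted p = 0.992). Of 15 relatives of the regulators in the WIP, FUL, YABBY and BELL families, 9 were tested. Of these, 0 passed with edgeR, DESeq2 or limma-voom. At an unadjusted p under 0.05, again without a share over all genes, 0 were higher and 3 lower.

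**Figure D4:**
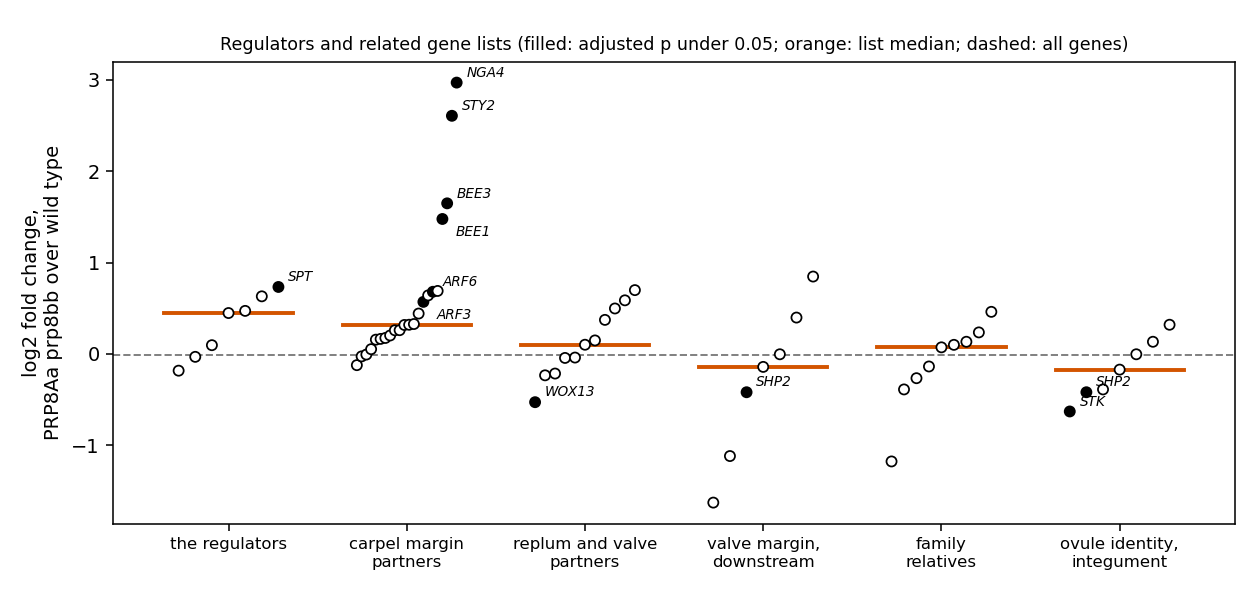
Log2 fold change, PRP8Aa prp8bb over wild type, of each tested gene in the regulators, their partner lists and the ovule list, with filled points for an edgeR adjusted p under 0.05, an orange bar at each list's median and a dashed line at the median of all genes. The carpel margin list has 6 filled points, all above 0, and its median of 0.32 lies above the other partner lists.

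Markers of other tissues moved too. Of 9 ovule and integument genes 7 were tested. Among these 0 rose and 2 fell, SHP2 and STK, against 3.05% and 2.79% of all genes tested. STK had 90.5, 77.8 and 75.2 CPM in the libraries labelled PRP8Aa prp8bb, against 108.2, 143.7 and 124.7 CPM in wild type (log2 fold change -0.63, SE 0.13, edgeR adjusted p = 0.0166), and it missed the threshold without replicate 3 labelled PRP8Aa prp8bb (edgeR adjusted p = 0.112) or wild type replicate 3 (0.0791). The list summed to 330.5 to 349.8 CPM in the libraries labelled PRP8Aa prp8bb, against 362.6 to 418.8 CPM in wild type. Of 10 embryo sac genes 9 were tested and 6 fell, against 2.79% of all genes tested, with sums of 7.40 to 13.3 CPM in the libraries labelled PRP8Aa prp8bb and 29.6 to 36.2 CPM in wild type. The count that fell was 2 to 4 when single libraries were left out, with 3 without replicate 1 or 2 labelled PRP8Aa prp8bb or wild type replicate 2, and 2 without replicate 3 labelled PRP8Aa prp8bb or wild type replicate 3. Of 5 nectary genes, a list that includes CRC, 3 were tested and BOP2 rose, against 3.05% of all genes tested. This list summed to 13.4 to 15.2 CPM in the libraries labelled PRP8Aa prp8bb and 9.11 to 13.0 CPM in wild type. The nectary sugar transporter gene SWEET9 had 3.55, 0.608 and 2.12 CPM in the libraries labelled PRP8Aa prp8bb, against 1.4, 0.624 and 1.32 CPM in wild type, and was thus, like CRC, lowest in replicate 2 of the first group. SWEET9 did not pass (log2 fold change 0.97, edgeR adjusted p = 0.409), nor did CWINV4, the most abundant gene of the list, which averaged 8.81 ± 0.986 CPM in the libraries labelled PRP8Aa prp8bb and 9.82 ± 2.20 CPM in wild type (SD, n = 3 each, log2 fold change -0.17, edgeR adjusted p = 0.695).

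Pollen genes summed to 766.8, 302.3 and 606.8 CPM in replicates 1, 2 and 3 labelled PRP8Aa prp8bb, against 359.1 to 365.9 CPM in wild type, and 2 of 10 tested rose, against 3.05% of all genes tested. This count was 1 without replicate 1, 6 without replicate 2 and 0 without replicate 3 labelled PRP8Aa prp8bb, and 0 without wild type replicate 2 or 3. Of 8 stamen and petal genes 2 were tested, PI and AP3, and they went opposite ways. PI rose. AP3 was lower in every library labelled PRP8Aa prp8bb than in any of wild type, with means of 11.4 and 18.8 CPM. It missed the threshold (log2 fold change -0.71, edgeR adjusted p = 0.0565) but was in the authors' deposited table (DESeq2 adjusted p = 0.0279). The list's sum, most of it AP3, was 11.8 to 17.2 CPM in the libraries labelled PRP8Aa prp8bb and 18.7 to 22.6 CPM in wild type. The tapetum gene MYB80 was at 0 in all 6 libraries. Of 8 genes of green tissue 1 fell, against 2.79% of all genes tested. The count that fell was 2 without replicate 2 labelled PRP8Aa prp8bb and 3 without wild type replicate 1. The green tissue list summed to 5426 to 6844 CPM in the libraries labelled PRP8Aa prp8bb and 6599 to 6935 CPM in wild type. BOP2 and PI each missed the threshold when any single library other than wild type replicate 1 was left out (edgeR adjusted p from 0.0758 to 0.169 for BOP2 and from 0.0573 to 0.132 for PI). The part of these tissues in the values of SPT and the carpel margin genes was not tested.

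Over the 6 libraries, the genes whose centred log2 CPM lay nearest to SPT were AT1G50745, BRU6 (AT4G37390) and AT4G16190, with root mean square differences of 0.0520, 0.0538 and 0.0580. BRU6 had 13.1, 12 and 11 CPM in the libraries labelled PRP8Aa prp8bb, against 8.41, 6.00 and 7.43 CPM in wild type. Among the regulators, SPT was nearest to NTT at 0.211, while NTT and RPL were nearest to each other at 0.101. FUL and ALC were nearest to each other at 0.181.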

How the data were processed

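Total RNA was depleted of ribosomal RNA and sequenced as stranded paired-end libraries, per the labels' protocols. Trimmomatic, STAR, featureCounts (Subread 1.6.0) and DESeq2 were used with TAIR10, per the submitters' processing notes. Fragment counts per gene, and counts per exon bin in which a fragment counts in every bin it overlaps, were made with featureCounts and strand setting 1, per the file headers, and were deposited without normalization. The deposited intron table gives depth (coverage signal), spliced read counts and the retention ratio, a fraction, and names no sample. The authors' deposited results table holds, for each gene it lists, a log2 fold change, a mean normalised count (signal) and an adjusted p-value, which reaches at most 0.0500.

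Gene counts were tested with edgeR 4.0.16 in R 4.3.3 (quasi-likelihood, robust, TMM factors, filterByExpr, no covariate, all 6 libraries). CPM uses TMM-scaled library sizes, and the SE is the size of the log2 fold change divided by the root of the F statistic. The biological coefficient of variation was 14.9%. The diffSpliceDGE test took bins that reached 10 counts in 3 or more libraries. Both tests were checked on simulated data. DESeq2 1.42.0, limma 3.58.1, other normalizations and filters, a replicate block and leaving out libraries were alternatives. So were leaving out organelle-encoded and rRNA genes, and halving the gene counts of wild type replicate 1. The SPT to ALC ratio used a pseudocount of 0.5 counts. Counting intervals are exact (95%) and cover counting error only. Other values used Python 3.11.15, pandas 2.3.3 and scipy 1.17.1.

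Libraries were grouped by title. The labels call the replicates biological without naming separate plants, so the p-values reflect how these libraries vary, possibly for technical reasons. Replicates of one group always differed by more than sampling noise, with a chi-square per gene of 5.06 to 89.4. Bin counts totalled 7361474 in wild type replicate 1 and 18706217 to 23086207 elsewhere. Coordinates follow the deposited tables. Gene names and sequences came from RefSeq TAIR10.1, in which 32548 genes matched by identifier, 99.95% of them with the same start and end, and 98.8% of 118268 nuclear introns began with GT and ended with AG at the files' coordinates.

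The members, lists and tests were chosen with earlier results of these data known. All members were named, and of each list up to 4 genes past the threshold by smallest p and up to 3 of highest level that did not pass. The rule was not followed for every list, and embryo sac, pollen and green tissue genes were given only as counts and sums. ARF3, NGA1 to NGA4, SHI, STY1, HAF, SWEET9 and MYB80 fall outside this rule in whole or part and were named after their values were seen.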

Additional observations from a re-analysis of the deposited data

How the results depend on the processing

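SPT stayed higher under all 16 alternatives (log2 fold change 0.63 to 0.84, adjusted p 0.000900 to 0.0743) and passed in all but the fit without wild type replicate 3. The count of regulators higher was 1 with all libraries and the filter, 2 without a filter on low counts (SPT and NTT), and 0 to 3 when libraries were left out. It was 2 without both wild type replicate 1 and replicate 2 labelled PRP8Aa prp8bb, an alternative added after seeing the data, in which CRC passed beside SPT (log2 fold change 2.40, edgeR adjusted p = 0.0470). The count lower was 0 throughout. Shares over all genes are not given for these alternatives. ALC changed sign in 3 fits, with log2 fold changes between -0.16 and 0.032 when libraries were left out (0.015 without replicate 1 labelled PRP8Aa prp8bb, 0.032 without wild type replicate 2, 0.019 without wild type replicate 3). IND lay between -0.52 and 0.058 in these fits, the last without replicate 1 labelled PRP8Aa prp8bb. Of 49 genes tested in the 4 partner lists, 6 rose and 2 fell, against 3.05% and 2.79% of all genes tested. All 6 that rose were in the carpel margin list. The count that rose was 3 to 8 when 1 or 2 libraries were left out, with 3 without replicate 3 labelled PRP8Aa prp8bb and 3 without wild type replicate 3, and 7 with DESeq2. The count that fell was 1 with limma-voom, 1 with the replicate block and 0 to 2 when 1 or 2 libraries were left out. BEE1, BEE3 and STY2 passed under all 16 alternatives, while NGA4 missed the threshold in 6, WOX13 in 5, ARF6 in 4, ARF3 in 3 and SHP2 in 7. The log2 ratio of the mean summed level of the regulators was 0.19, and 0.34 without ALC. The causes of these differences were not tested. Same-numbered libraries showed no sign of deviating together (r = -0.0510, -0.0508 and 0.0955, against -0.123 to 0.110 for unlike numbers). With 3 libraries per group this cannot exclude that the numbers pair the samples. With the replicate block SPT had a log2 fold change of 0.73 (adjusted p = 0.0313) and 1 regulator and 5 partner genes rose. The pollen genes that rose numbered 2 with all libraries and 1 without a filter on low counts. No member bin passed under any of the 9 alternatives. Levels under about 1 CPM rest on few counts, and depth limits what can be said of CRC, HEC1 and HEC2.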
